A study of Mus musculus with 400 samples.

Results

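The genes described here are 10 keratin and cell junction genes of intestinal epithelium: Epcam, Cdh1, Krt8, Krt18, Krt19, Krt20, Cldn2, Cldn3, Cldn7 and Cldn15. They were taken as a list by name from the 33496 genes of a single-cell count table, and all 10 had a row. Values are over the 380 of 400 cells with total counts of 10000 or more. Every cell was an Lgr5-high cell sorted from crypts of the proximal small intestine (duodenum and jejunum) of Lgr5 GFP/+ mice, in which the allele Lgr5::EGFP-IRES-Cre-ERT2 puts green fluorescent protein and an inducible Cre under the control of Lgr5, the gene of a receptor that marks crypt base stem cells. Villi were shaken and filtered off first, dead cells were left out by DAPI, and polyadenylated RNA of single cells was amplified on a Fluidigm C1 chip. The labels mention tamoxifen for lineage tracing and do not say whether the mice of these cells had it. Mice of like age and sex are stated with no age, and no animal is named for any cell, so the 1 group is treated as 1 sample and no p-value was computed from cells. The titles split the cells into 10 library sets of 40 cells, a technical split, and the same 40 barcode numbers recur in all 10 sets. Every SD below is over library sets.

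Keratins are filament proteins that assemble as pairs of a type II chain, such as the product of Krt8, with a type I chain, such as those of Krt18, Krt19 and Krt20. Epcam and Cdh1 encode membrane proteins that hold epithelial cells together, Cdh1 (E-cadherin) through the catenins at adherens junctions. Claudins form the strands of tight junctions: Cldn2 and Cldn15 make pores for cations, and Cldn3 is a sealing type. In the small intestine Krt20 and Cldn2 are known for opposite places, Krt20 in the differentiated cells of the villus and Cldn2 in the crypt.

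In GRCm38 with the GENCODE M21 annotation, the adhesion genes lie apart, Epcam (ENSMUSG00000045394.8) at chr17:87635979-87651129 and Cdh1 (ENSMUSG00000000303.12) at chr8:106603351-106670246, both on the plus strand. On chromosome 15 lie Krt8 (ENSMUSG00000049382.9) at chr15:101996698-102004482 (minus strand) and Krt18 (ENSMUSG00000023043.6) at chr15:102028180-102032027 (plus strand). The other keratins share chromosome 11 and the minus strand, Krt19 (ENSMUSG00000020911.14) at chr11:100140810-100148665 and Krt20 (ENSMUSG00000035775.2) at chr11:99428403-99438150. All 4 claudins are on the plus strand, Cldn2 (ENSMUSG00000047230.6) at chrX:139800828-139811386, Cldn3 (ENSMUSG00000070473.4) at chr5:134986214-134987472, Cldn7 (ENSMUSG00000018569.12) at chr11:69964779-69967885 and Cldn15 (ENSMUSG00000001739.14) at chr5:136966616-136975858. Counts are per gene and are not split by exon.

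Total counts of the kept cells ran from 10766 to 70133, the middle cell holding 32112 counts, and 8616 genes were found in the median cell. The highest count of any gene in any cell was 36, so the counts of abundant genes are compressed and ratios between them are smaller than they would be on an open scale. Genes that span 100 kb or more, counted from first to last exon, held between 10.6% and 34.5% of a cell's counts (median 14.9%), and this share is given below where it moved with a result.

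A copy of Krt8 elsewhere in the genome bears on how its counts can be read. A processed pseudogene, Krt8-ps, lies at chr7:23357125-23358069 on the plus strand (GRCm38, GENCODE M21), inside an intron of Nlrp4e. It aligned with the Krt8 transcript without gaps over 945 bases, of which 98.2% were identical. A short read from a stretch that is identical in both would match both places equally well. Krt8-ps was not analysed here as a gene of its own. Nlrp4e, its host and a member of a family of innate immune receptor genes best known from oocytes, was counted in all but 4 of the 380 cells (98.9%). Its counts had a lowest value of 0, a median of 9 and a highest value of 23. In its nearest relatives the share of cells was 38.9% for Nlrp4c, 20.8% for Nlrp4a and 1.84% to 8.68% for Nlrp4b, Nlrp4d, Nlrp4f and Nlrp4g. Of the Nlrp genes outside Nlrp4, Nlrp6 was in 99.5% of cells and the others looked at in 0.526% to 23.7%. How the authors treated reads with several matching places is not given in the sources used here, so the counts of Krt8 are uncertain to that extent. Krt18 shares words of 31 bases with the pseudogenes Gm5200 and Gm17847, the latter counted in 15.3% of cells. Krt8 also overlaps an exon of Gm36026 and Cldn3 an exon of Wbscr25, both on the opposite strand, and the use of strand in counting is not given in the sources used here.

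Promoter windows of 250 bases before to 50 bases after the start were matched by symbol in RefSeq (GRCm38.p6) for 8 of the 10 genes, with 2 windows for Cldn7, and Cdh1 and Krt19 had no match. Those of Krt8 and Krt18, neighbours on chromosome 15 with 23.7 kb between them, and of Krt20, the 1 listed gene that most cells lacked, are shown so that the rare keratin can be read beside the pair found in every cell. Capitals mark TATAAA, the core of the TATA box, and CAGGTG, an E-box bound by Snail and Zeb repressors, both searched on both strands.
Krt8, chr15:102004293-102004592, minus strand: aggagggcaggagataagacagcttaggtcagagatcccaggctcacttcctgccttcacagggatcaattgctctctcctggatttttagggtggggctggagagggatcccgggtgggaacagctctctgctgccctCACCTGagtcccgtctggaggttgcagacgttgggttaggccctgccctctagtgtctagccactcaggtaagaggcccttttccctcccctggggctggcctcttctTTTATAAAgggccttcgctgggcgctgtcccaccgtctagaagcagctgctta
Krt18, chr15:102027966-102028265, plus strand: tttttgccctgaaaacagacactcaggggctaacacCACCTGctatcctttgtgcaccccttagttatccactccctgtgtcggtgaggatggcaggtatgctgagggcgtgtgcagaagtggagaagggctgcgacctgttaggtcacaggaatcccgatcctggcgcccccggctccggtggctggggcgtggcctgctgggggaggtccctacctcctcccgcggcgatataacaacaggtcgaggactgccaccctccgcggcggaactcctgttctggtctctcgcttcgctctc
Krt20, chr11:99438104-99438403, minus strand: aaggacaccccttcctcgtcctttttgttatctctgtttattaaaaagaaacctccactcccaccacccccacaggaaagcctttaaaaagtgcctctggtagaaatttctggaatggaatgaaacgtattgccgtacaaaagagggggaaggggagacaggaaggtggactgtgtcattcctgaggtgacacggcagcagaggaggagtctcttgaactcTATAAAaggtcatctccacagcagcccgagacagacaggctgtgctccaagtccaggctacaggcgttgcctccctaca
Of the 9 windows, 3 held TATAAA (Krt8, Krt20 and Cldn2), against 13.6% of 32851 promoters of the same length. CAGGTG was in the windows of 5 genes (Epcam, Krt8, Krt18, Cldn3 and Cldn7) and in 20.2% of all promoters. In Krt8 the forward and reverse matches to TATAAA overlap and begin at positions -3 and -1, at the annotated start itself. The match begins at position -29 from the start in Krt20 and at -35 in Cldn2. CTTTGA, the core bound by TCF and LEF factors, was in 0 of the 9 windows and in 5257 of the 32851 promoters. TGANTCA, the AP-1 site, was in 1 window, that of Cldn15, and in 7.81% of all promoters. These are matches of letters, and this series measured no factor on them.

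Of the listed genes, 9 were found in more than 95% of cells, and Krt20 in 29 of 380 cells. A share of 95% was reached by 3.31% of all genes counted. Epcam, Krt8, Krt18, Krt19 and Cldn7 had a count in all 380 cells (95% Clopper-Pearson interval 99.03% to 100%, counting error only, as for every interval below). Cdh1 and Cldn2 were missed in 2 cells each, Cldn15 in 9 and Cldn3 in 18. Such cells had fewer counts on the median: the total was 23689.5 in the cells without Cldn3 against 32312 in those with it, and 16049 against 32351 for Cldn15. The deepest cell without Cldn3 had a total of 43202. In 92.6% of cells all of the 9 genes had a count, in 25 cells 8 had one, and in 3 cells 7.

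Of the adhesion genes, Epcam had the highest mean CPM of the 10 genes. It had counts of 3 to 25 per cell (median 16) and a level of 492 ± 13.5 CPM (counts scaled to the cell's total; mean and SD over 10 library sets). Its set means lay between 470 and 514 CPM, the narrowest spread of the 10 genes relative to the mean (2.75%). Cdh1 ran from 0 to 21 counts with a median of 10, at 323.95 ± 22.6 CPM. Both were thus present in nearly every cell at levels that changed little from set to set.

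Among the keratins, Krt18 ran from 3 to 27 counts with a median of 13 (409 ± 29.96 CPM), and its partner Krt8 from 1 to 24 with a median of 12 (389.3 ± 23.5 CPM). Krt19, a type I keratin that can take the place of Krt18 in the pair, ran from 1 to 21 with a median of 10 (313.5 ± 26.4 CPM). Krt19 was lowest in library set 6, at 247.98 CPM, where the next lowest set had 299.7 CPM. Krt20 had a median of 0 and a highest count of 15 (5.56 ± 8.43 CPM), so its SD exceeded its mean.

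Among the claudins, Cldn7, which binds Epcam at the lateral membrane, ran from 1 to 22 counts with a median of 12 (367.1 ± 26.5 CPM). Cldn2 ran from 0 to 25 with a median of 12 (361.6 ± 20.97 CPM). Cldn15 had a median of 7 and a highest count of 19 (217.7 ± 19.9 CPM), and Cldn3 a median of 6 and a highest count of 18 (197.7 ± 38.4 CPM). Cldn3 varied most between library sets among the 9 common genes, from 142.1 to 257.7 CPM, a coefficient of variation of 19.4% against 2.75% to 9.15% for the other 8.

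**Figure D1:**
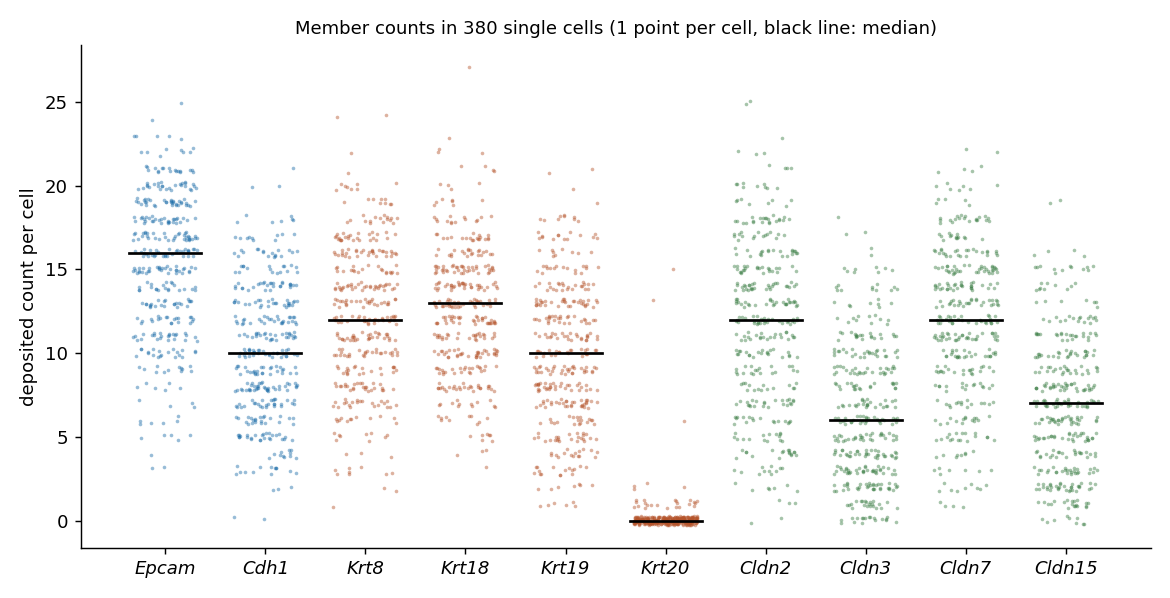
Deposited count of each of the 10 genes (x axis) in each of the 380 kept cells (y axis, counts, with a small random offset), 1 point per cell, with adhesion genes in blue, keratins in brown and claudins in green; the black line is the median. The medians run from 6 for Cldn3 to 16 for Epcam, and Krt20 lies at 0 in all but 29 cells.

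**Figure D2:**
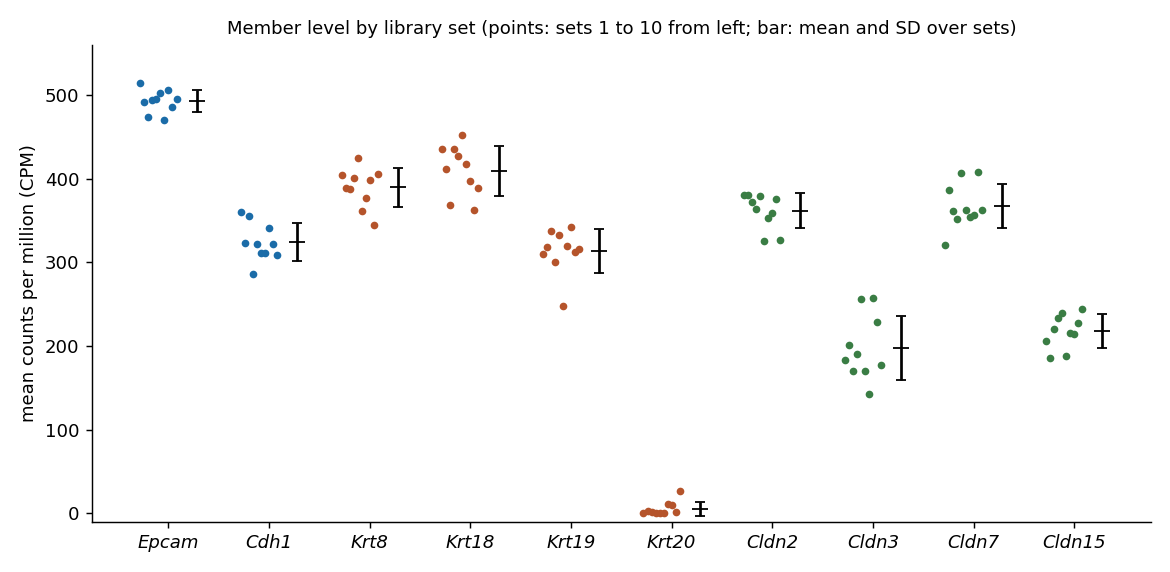
Mean CPM of each gene (y axis) in each of the 10 library sets, with sets 1 to 10 from left to right within a gene, and the mean and SD over sets as a black bar. Cldn3 spreads from 142.1 to 257.7 CPM, Krt19 is low in set 6 (247.98 CPM), and Krt20 is highest in set 10 (26.4 CPM).

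Levels were ordered between genes per length, as mean CPM per kb of annotated exon. This assumes that counts rise with transcript length, which was not tested, and the way of counting is not named in the sources used here. Krt18 was highest at 284.99 CPM per kb, followed by Epcam (224.3), Krt8 (199.01), Cldn7 (188.4), Krt19 (169.1), Cldn3 (156.8), Cldn2 (108.8), Cldn15 (102.5), Cdh1 (70.8) and Krt20 (2.85). The ranges over library sets did not overlap between Krt18 and Epcam, between Cldn15 and Cdh1, or between Cdh1 and Krt20. All other neighbours in this order overlapped, so their order is not separated by these sets. Cdh1 has the longest exons of the 10 genes, 4.574 kb, and Krt18 and Cldn3 the shortest, 1.437 kb and 1.259 kb. The order depends on the scaling: by mean CPM alone Epcam (492.3) was above Krt18 (409.5), and Cdh1 (323.9) above Cldn15 (217.6).

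How far a gene varied from cell to cell was described by the variance of its full-depth counts over their mean. This ratio is 1 for chance alone only where all cells have the same depth and counts have no ceiling. Totals differed between these cells, so 1 is not the chance value here. Among the 750 genes with a mean count within the range of the 9 common genes (6.34 to 15.2), the median of this ratio was 2.09, the 10th percentile 1.60 and the 90th 2.60. Krt18 (1.16), Epcam (1.18), Krt8 (1.49) and Cdh1 (1.59) lay below that 10th percentile. Cldn7 (1.79) and Krt19 (1.86) lay below the median, Cldn2 (2.22) and Cldn15 (2.33) above it, and Cldn3 (2.62) above the 90th percentile. The adhesion genes and the Krt8 and Krt18 pair were therefore on the even side of this range, and Cldn3 on the uneven side. Epcam, Krt18 and Krt8 had the highest mean counts of the list (15.2, 12.5 and 12.1), where the compressed scale bears most on the variance. The part of depth and of the ceiling in these ratios was not tested.

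The cells with Krt20 were few and unlike each other. Of its 64 counts, 34 (53.1%) came from 3 cells, which held 15, 13 and 6 counts; 4 cells held 2 and 22 cells held 1. The cell with 15 counts, in library set 10, had the highest summed level of the 24 enterocyte genes of all 380 cells, 9065 CPM against a median of 1769 CPM. It held 25 counts of Apoa4, 22 of Apoa1, 16 of Sis and 13 of Alpi, genes of lipid transport and of the brush border that each had a median of 0. It also held 10 counts of Lgr5 and 15 of Epcam, and its 19 counts of Cldn15 were the highest count of that gene, shared with 1 cell without Krt20. The cell with 13 counts, in set 7, ranked 2nd for the enterocyte genes at 3813 CPM, with 11 counts of Sis, 0 of Apoa1 and 0 of Apoa4. It held 21 counts of Krt19, the highest count of that gene, shared with 1 cell without Krt20. The cell with 6 counts, in set 8, was at 1615 CPM, below the median, so a Krt20 count above 2 went with a high enterocyte level in 2 of 3 cells. The cell ranked 3rd for the enterocyte genes, at 3757 CPM in set 10, held 2 counts, so the 3 highest cells all had Krt20. The other cells with 2 counts were at 2009, 1766 and 1454 CPM. The 22 cells with 1 count ran from 1112 to 3246 CPM, the latter ranked 6th and in set 10.

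Krt20 was also uneven between library sets. Set 10 held 11 of the 29 cells, 29.7% of its 37 cells (15.9% to 46.98%), and without that set the share was 18 cells, or 5.25%, against 7.63% (5.17% to 10.8%) with it. Sets 1 and 5 had 0 of 38 and 0 of 39 cells, which by a limit of 3 cells over the total allows shares of up to 7.89% and 7.69%. The mean over cells was 5.49 CPM with set 10 and 3.24 CPM without it. That set includes the cell with 15 counts, at 483.9 CPM. Whether the set differs in its cells or in its handling cannot be told apart, since no label gives an animal per set.

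**Figure D3:**
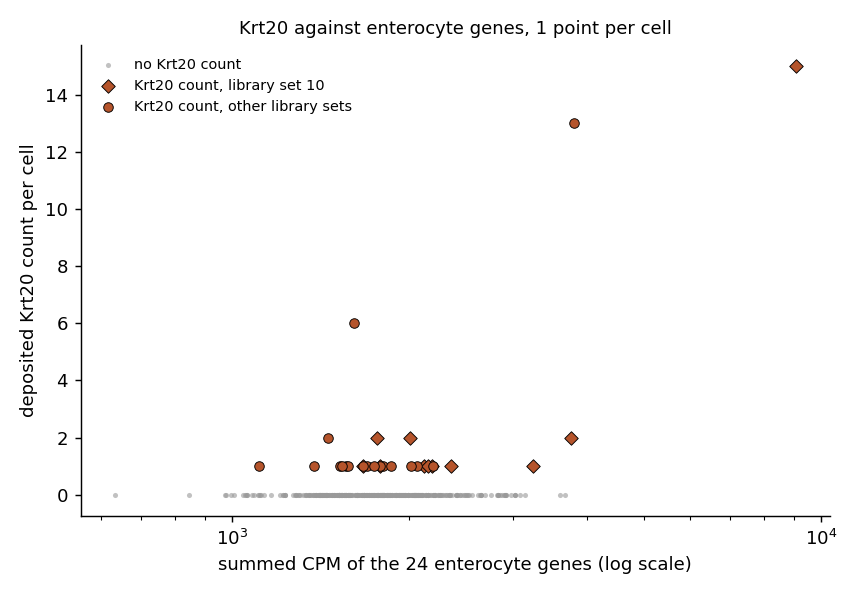
Deposited Krt20 count per cell (y axis) against the summed CPM of the 24 enterocyte genes (x axis, log scale) for 380 cells; diamonds are cells of library set 10 with a Krt20 count, circles those of other sets, grey points cells without one. The cell with 15 counts is farthest right at 9065 CPM, and the 22 cells with 1 count lie among the cells without Krt20.

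The remaining keratins, listed as genes that simple or stratified epithelia use, were mostly rare. Of 4 other simple keratins, Krt7 was in 84.5% of cells (90.8 CPM), Krt23 in 31.8%, Krt222 in 11.1% and the last in 4.47%. Of 22 stratified and hair keratins, 3 reached 10% of cells: Krt10 (31.3%), Krt13 (21.8%) and Krt15 (15.8%). The basal pair Krt5 and Krt14 was in 3.42% and 4.74%, and Vim, the filament of mesenchymal cells, in 3.42%. Trp63, which marks basal cells of stratified epithelium, had a count in 54.5% of cells, and it is a gene that spans over 100 kb.

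Of 21 other claudins listed, 16 had a row and 5 were not analysed here. None of the 16 reached 90% of cells: Cldnd1, a claudin domain gene, was in 71.1%, Cldn12 in 55%, Cldn14 in 30.8% and Cldn4 in 26.3%. The 4 listed claudins stood above each of these 16 in the share of cells, but the lists were chosen with earlier results of these data known. The partners of Cdh1 were common, with Ctnnb1 (beta-catenin) in 99.2% of cells, Ctnna1 (alpha-catenin) in 99.5% and Ctnnd1 (p120 catenin) in 98.2%. Of the desmosome genes, Dsp (desmoplakin) was in 96.8%, Dsg2 in 95% and Pkp4 in 88.9%. Of the genes listed with Epcam, Spint2, a protease inhibitor, was in 98.9%, Tspan8 in 99.5% and Itga6 in 99.5%. Among regulators of the switch to a mesenchymal state, Esrp1, a splicing factor of epithelial cells, was in 96.3% of cells, Grhl2 in 77.9% and Ovol1 in 70.8%.

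Markers of other cell types were low but not absent. Without the antigen presentation genes Cd74 and H2-Aa, which were in 95% and 94.5% of cells and were set aside after their values were seen, the 12 immune markers summed to 0 to 18 counts per cell (median 1). The 9 stromal markers summed to 0 to 20 counts and the 6 endothelial markers to 0 to 25, both with a median of 1. The cell with the most immune counts held 6 counts of Epcam, 4 of Krt8 and 2 of Cdh1, below the medians of 16, 12 and 10. Its total was also low, 16510 counts against a median of 32112, and these counts are not scaled to the total. The cells with the most stromal and endothelial counts held 20 and 19 counts of Epcam. Their totals were high, 58715 and 70133 counts, and these counts are likewise not scaled to the total. Across the 380 cells the share of counts from the 9 common genes fell where the share from these markers was higher, with Spearman's rho of -0.34 for the immune, -0.33 for the stromal and -0.42 for the endothelial list. These shares have the cell's total in common, and the part of such cells in the results below was not tested.

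Cell classes were compared over the cells with at least 18622 counts, which leaves out 37 of the 380, as log2 ratios of mean CPM with a pseudocount of 1 CPM. A gene was counted as past the fold at 0.5 or more in size. Of the listed genes, 9 had a count in at least 10% of cells and enter the counts, and Krt20 is given beside them. The classes are cut from 1 population by a range of a score or by 1 count, so they are not cell types. A tertile is the highest or the lowest of 3 equal classes of these cells. In each of the 7 comparisons 0 of the 9 genes were past the fold.

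The first comparison asks whether epithelial genes differ with Lgr5 itself. The highest and the lowest Lgr5 tertile differed by -0.18 (Cldn2) to 0.03 (Krt18), with a median of -0.07 over the 9 genes. Cldn2 was at 344.8 CPM in the high and 390 CPM in the low class, lower in 8 of 10 library sets, with an SD of 0.36. Among other genes, 16.5% of the 17216 genes counted in at least 10% of cells were past the fold, and 0% of the 1747 counted in at least 90%, so the absence of a change past the fold is what common genes showed in general. The median over all genes was 0.02. Within 5% of a cut in Lgr5 lay 43 cells. Krt20 was at 7.02 against 3.70 CPM, a ratio of 0.77 that turned to -0.44 without library set 10 and was 1.52 without set 8.

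The cell cycle comparison asks whether the genes differ with division, which the study's title puts at the centre. It set the tertile with the highest mean of 60 S, G2 and M phase genes against the lowest. Cldn3 was at 228.6 CPM in the high and 172.99 CPM in the low class (0.40, SD 0.31, higher in 8 of 10 sets), Cldn2 at 393.1 and 321.3 CPM (0.29, SD 0.29, 8 of 10) and Cldn7 at 391.7 and 349.07 CPM (0.17, SD 0.15, 8 of 10). The fourth claudin, Cldn15, was at 0.11 and above 0 in 5 of 10 sets, close to Krt19 (0.12, 7 of 10) and Epcam (0.08, 7 of 10). Krt18 was at -0.05, Krt8 at 0.00 and Cdh1 at 0.01. Cldn3, Cldn2 and Cldn7 were thus higher in the cycling class in most sets, by about 1 SD over sets and short of the fold. Of all genes tested 48% were past the fold, and 9.73% of the genes in at least 90% of cells. The median was 0.11 over the 9 genes and 0.22 over those common genes, with Cldn3 and Cldn2 above 0.22 and the other 7 listed genes below it.

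The classes differed in more than cycling. The median share of counts from genes spanning 100 kb or more was 13.5% in the high and 20.0% in the low class, and the median total 36419 against 30973.5 counts. With tertiles cut within 5 bins of that share, the median of the 9 genes was -0.03 and Cldn3 was at -0.10. All 6 stromal and all 5 endothelial markers tested were past the fold downward in the high class. Their part in the claudin values, beyond these numbers, was not tested, and more cells lay within 5% of a cut than either class held. Krt20 was at 1.18 against 12.7 CPM (-2.65), and at -1.05 without the 3 cells that held most of it.

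With the enterocyte score (the mean of 24 absorptive cell genes) the pattern was another. Cldn15 was at 248.04 CPM in the high and 201.3 CPM in the low tertile (0.30, SD 0.29, higher in 8 of 10 sets), Krt8 at 408 and 373.5 CPM (0.13, SD 0.23) and Cdh1 at 329.1 and 305.7 CPM (0.11, SD 0.18, 8 of 10). Cldn2 (-0.02), Cldn3 (-0.02) and Cldn7 (-0.04) lay near 0. Cldn15 therefore stood out from the other 3 claudins in this comparison, by about its own SD, and that difference was not tested. Of all genes tested 16.1% were past the fold, and 0.172% of those in at least 90% of cells. Krt20 was at 11.5 against 1.88 CPM, a ratio of 2.12 that fell to 0.89 without library set 10 and to 0.84 without the 3 cells with most Krt20.

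For the goblet score, the 9 genes ran from -0.11 (Cldn15) to 0.12 (Krt19), with a median of -0.01. The fold was passed by 20.6% of all genes tested and by 0.401% of those in at least 90% of cells. Krt20 was at 7.08 against 7.11 CPM, a ratio of -0.01 that became 1.08 without set 1, 1.08 without set 4 and 1.405 without set 10. None of the 9 common genes moved with this score beyond its SD over 9 sets, which was 0.15 to 0.35. For Krt20 that SD was 1.62.

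Cells with a Krt20 count after thinning to 18622 counts (16 cells, of which 10 had 1 count) were set against the rest. The 9 genes lay between -0.05 (Cldn2) and 0.13 (Epcam), with a median of 0.02 and SDs of 0.19 to 0.74 over the 5 sets that held at least 2 cells of each class. Past the fold were 40.9% of all genes tested and 5.21% of those in at least 90% of cells. Of the 21 enterocyte genes tested, 13 were past the fold upward, led by Apoa4 (96.97 against 9.31 CPM, 3.25), and of 11 Paneth genes 8 were, led by Pnliprp2 (2.07). Without library set 10, which left 9 cells with Krt20, 8 enterocyte genes were past the fold upward and 3 downward, with Apoa4 at -0.56, and 9 Paneth genes upward. Without the 3 cells with most Krt20, 7 enterocyte and 9 Paneth genes were, so the enterocyte count rests in part on that set and those cells. Cldn4, a claudin of low level here, had no count in the 16 cells, against 22.9 CPM in the rest. So the other keratins of the list were at like levels with and without Krt20, Krt8 at 376.6 and 385.1 CPM, Krt18 at 406 and 392.5 CPM and Krt19 at 311.9 and 302.1 CPM. Among cells without a thinned count, 11 had a Krt20 count as deposited.

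By its title the study names Mex3a, the gene of an RNA-binding protein, as a mark of slowly dividing cells. The 29 cells with a Mex3a count after thinning (18 of them with 1 count) differed from the rest by -0.06 (Krt8) to 0.09 (Epcam). Epcam was at 509 against 477 CPM, higher in 7 of the 8 sets that held at least 2 cells of each class, with an SD of 0.10. Past the fold were 26.5% of all genes tested and 0.343% of those in at least 90% of cells. A thinned Krt20 count was found in 0 of 29 cells, which by the same limit of 3 cells allows a share of up to 10.3% (upper Clopper-Pearson bound 11.9%), and in 16 of the others (5.10%, 2.94% to 8.14%), so a difference was not detectable at this number of cells. At full depth 2 Krt20 counts fell in the 29 cells and 60 in the others.

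Of the 7 splits, depth had the median of the 9 genes farthest from 0, at -0.16. In the deepest tertile (median total 41624) against the shallowest (median 25519.5), Krt18 was at 350.3 and 446 CPM (-0.35, SD 0.13), Epcam at 433 and 521 CPM (-0.27, SD 0.13), Krt8 at 352.9 and 419 CPM (-0.25, SD 0.24) and Cdh1 at 296.8 and 340 CPM (-0.20, SD 0.25). Krt18 and Epcam were lower in the deep class in 10 of 10 sets, and Krt8 and Cdh1 in 9 of 10. Cldn2 (0.01), Cldn15 (-0.05), Cldn3 (-0.06) and Krt19 (-0.08) lay near 0. Cldn7 lay between, at 353.996 and 394.7 CPM (-0.16, SD 0.19, lower in 8 of 10). The 4 genes farthest from 0 were also the 4 with the lowest variance over mean. The measures are not independent, since both use the same counts of cells with unequal totals and the same ceiling. No conclusion is drawn from this match. Krt20 was at 1.66 against 5.90 CPM (-1.38). Past the fold were 29% of all genes tested and 2.8% of those in at least 90% of cells. The median share of mitochondrial counts was 0.73% in the deep and 1.07% in the shallow class. With counts mapped back for the ceiling, the median of the 9 genes was -0.07 in place of -0.16.

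**Figure D4:**
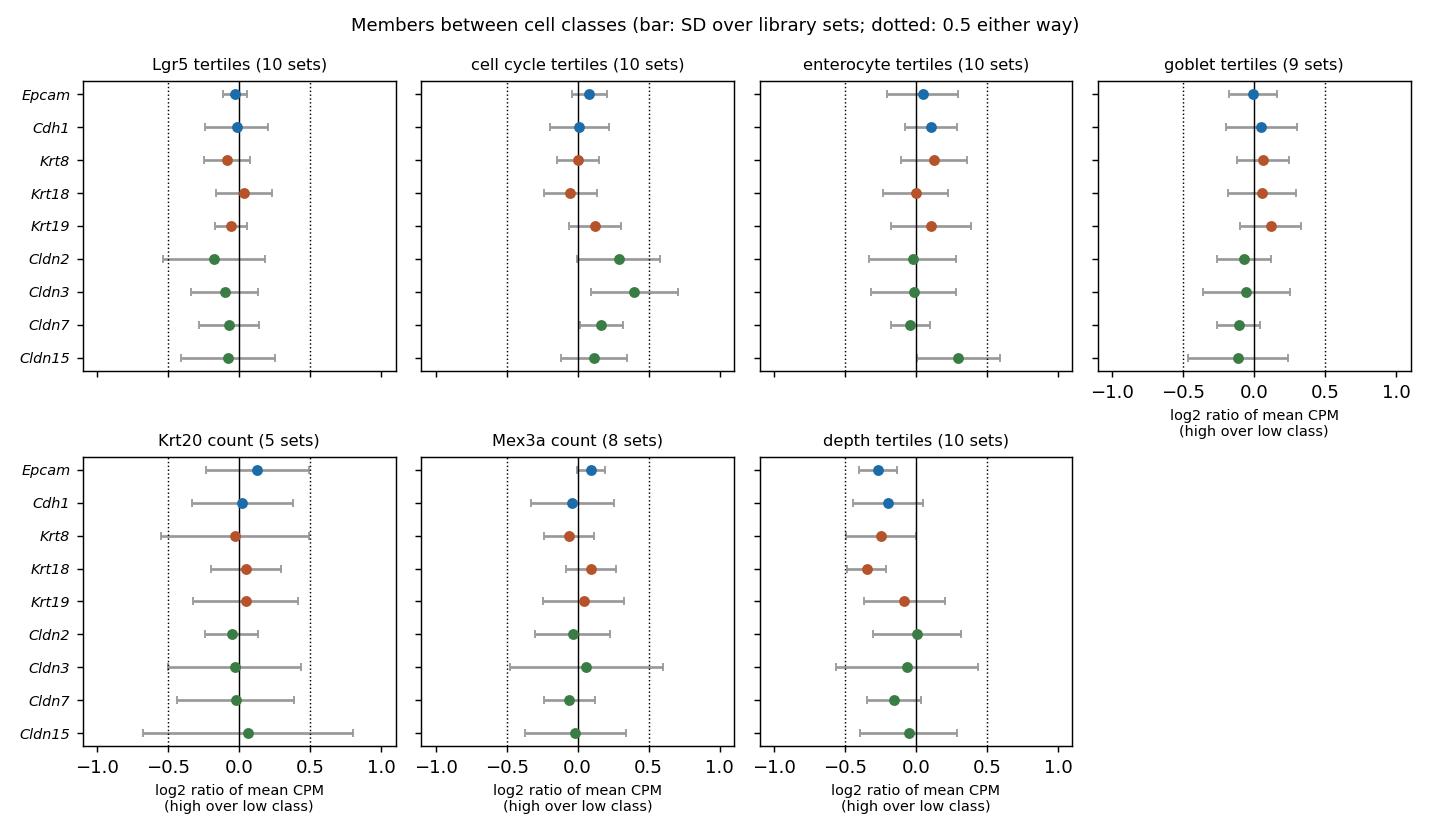
Log2 ratio of mean CPM (x axis, high over low class) of the 9 common genes in 7 comparisons, with bars of 1 SD over the library sets named in each title and dotted lines at 0.5 either way. No point lies beyond a dotted line; Cldn3 and Cldn2 lie highest by cell cycle (0.40 and 0.29), Cldn15 by enterocyte score (0.30), and Krt18 and Epcam lowest by depth (-0.35 and -0.27).

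Across the thinned cells, 37 fewer than the 380, the listed genes were weakly related to each other. Spearman's rho over the 36 pairs of the 9 common genes had a median of 0.12 and ran from -0.03 to 0.23, and 34 pairs were above 0. Over all pairs of the 1748 genes in at least 90% of cells the median was 0.04 and the 90th percentile 0.16, and 67.6% of pairs were above 0. The highest pairs were Epcam with Cldn2 (0.23, above 0 in 10 of 10 library sets), Epcam with Cldn7 (0.22, 8 of 10) and Cldn2 with Cldn3 (0.21, 10 of 10). The keratin pair Krt8 and Krt18, whose proteins assemble with each other, was at 0.16 (9 of 10 sets). Krt18 and Krt19, the alternative type I partners of Krt8, were at -0.03, while Krt8 and Krt19 were at 0.17 (10 of 10). Values this weak in sparse counts are given as a description. The cells share their totals, their thinning and the composition of their counts.

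**Figure D5:**
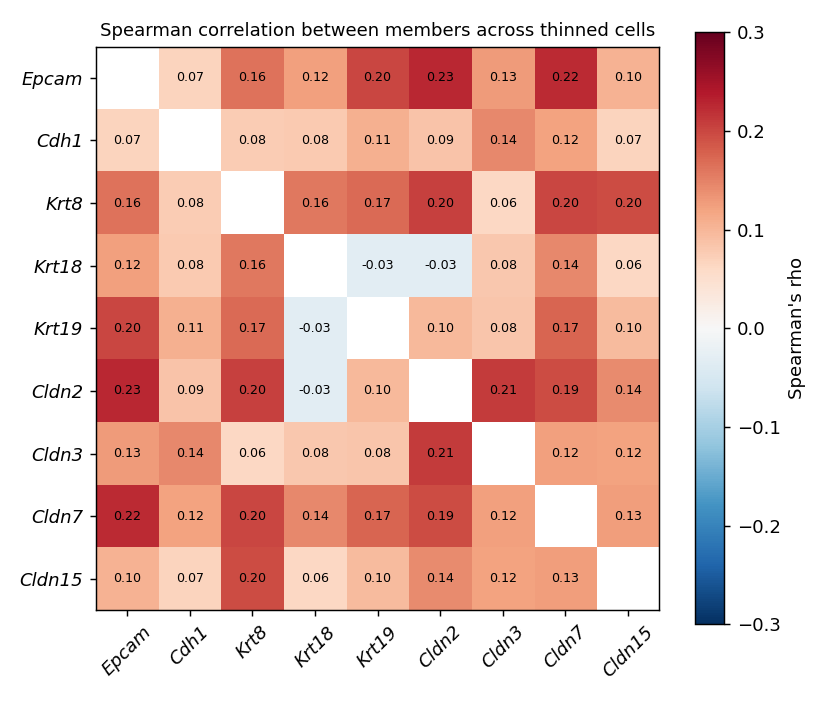
Spearman's rho between the 9 common genes across the cells thinned to 18622 counts, as colour from -0.3 to 0.3 with the value in each square. Epcam with Cldn2 (0.23) and Epcam with Cldn7 (0.22) are highest, and Krt18 with Krt19 (-0.03) and Krt18 with Cldn2 (-0.03) are the 2 pairs below 0.

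The composition moved with the listed genes. Across the same cells the share of counts from genes spanning 100 kb or more had a rho of -0.36 with Cldn2, -0.33 with Cldn7 and -0.32 with Cldn3, and between -0.25 and -0.08 with the other 6 common genes. The 100 genes nearest to Cldn3 in rho had a median span of 2.77 kb and the 100 farthest 469.8 kb, against 30.4 kb over all genes. For Cldn7 these medians were 2.14 and 290 kb, and for Krt18 3.91 and 95.4 kb. With that share regressed out of the ranks, the median over the 36 pairs was 0.08.

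By the likeness rule, which names the 3 genes with the highest rho among the 10357 genes with a thinned count in at least 25% of cells, the nearest gene of Krt8 was Nlrp4e (0.43), whose intron holds the Krt8 copy, and Rpl4 (0.30) was also among the 3. The relation of Krt8 with Nlrp4e was above 0 in 10 of 10 library sets, and it exceeded that of Krt8 with each of its keratin partners. In the tertile with the lowest Krt8 the mean thinned Nlrp4e count was 3.98, and in that with the highest 6.31. Nlrp4e was at 0.15 with Krt18, 0.13 with Epcam and 0.20 with Krt19.

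For the other genes the nearest were mostly short genes, several of them ribosomal protein genes or their processed copies. Epcam was nearest to Rpl18-ps1 (0.33), Gm15500 (0.33) and Rps19 (0.31), and Krt18 to Rpl41 (0.31), Gm20388 (0.31) and Rps3 (0.30). Cldn7 was nearest to Rps4x (0.40), Gm10073 (0.37) and Tecpr2 (0.36), and Cldn2 to Gm5560 (0.35), Hmgn2 (0.33) and Gm11273 (0.33). Krt19 was nearest to Mrpl19, Syngr2 and Grpel1 (0.24 to 0.25), and Cldn3 to Hmg20b, Ftl1 and Ubb (0.27). Cdh1 was nearest to Pigr, the receptor that carries immunoglobulin across the epithelium (0.25), Ndufb2 (0.23) and Eef1g (0.23), and Cldn15 to Ripk3, Aqp1 and Gm11223 (0.24). No pair of listed genes was among these nearest 3.

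The other genes of the junctions, in lists chosen for their roles, gave the comparisons above a wider frame. Their counts stand against 48% of all genes past the fold by cell cycle and 26.5% by Mex3a. By cell cycle, 8 of the 9 genes listed with Epcam that were tested were above 0 (median 0.14, highest Cd9 at 0.45, lowest Itgb4 at -0.22), and 0 were past the fold. Of 20 other tight junction genes 0 were past the fold upward and 4 downward (median -0.17, lowest Jam2 at -1.04, highest Crb3 at 0.46). Of 8 other claudins 1 was past it upward and 4 downward (Cldnd1 at 0.62, Cldn18 at -1.98). Of 15 adherens junction genes 2 were past it downward, with Cdh3 (P-cadherin) lowest at -1.48 and Vcl highest at 0.26. Of 11 desmosome genes 1 was past it in each direction, Pkp3 at 0.52 and Dsg3 at -2.31. The median over all genes tested was -0.06, with 46.7% of them above 0. Over the genes in at least 90% of cells the median was 0.22, above the 0.14 of the genes listed with Epcam. By enterocyte score, Cdhr5, a cadherin of the brush border, was highest among the adherens junction genes at 0.58, and Cldn4 lowest among the other claudins at -1.07. By Mex3a, 7 of the 9 genes listed with Epcam were above 0 (median 0.16), with 0 past the fold. The median over all genes tested was -0.04 there, with 45.8% of them above 0.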

How the data were processed

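The authors deposited 1 table with a whole-number count per gene and cell, used here as counts, for 400 cells of 1 group. The build is GRCm38.p4, per the submitters' processing notes; no aligner, counting tool, strand setting or molecular identifier is named in the sources used here, and doublets were not removed. Symbols and positions came from GENCODE M21 and matched 33219 of 33496 identifiers. Cells with 10000 counts or more were kept (380). CPM used all genes of a cell. Shares of cells with a count are at full depth unless called thinned, so they depend on the totals. For scores, for classes by Krt20 or Mex3a and for correlations between genes, cells were thinned without replacement to 18622 counts, the 10th percentile. This left out 37 shallower cells. The Lgr5 and depth tertiles used full-depth values of the same cells. Ratios use mean full-depth CPM plus 1 CPM over genes counted in 10% of cells. Set SDs use library sets with at least 2 cells per class. Intervals are Clopper-Pearson at 95%. The code was tested on simulated data. The genes and lists were chosen with earlier results of these data known. Named are all 10 genes, of each list the 3 highest by mean CPM and each comparison's highest and lowest, and each gene's 3 nearest by rho; other genes, such as Krt5, Vim, Trp63 and the Nlrp4 family, were named after their values were seen. A few items that this rule names are not reported here. Alternatives covered pseudocount, thinning, scaling, cell filters and left-out library sets. Computation used numpy 2.4.6, pandas 2.3.3, scipy 1.17.1 and matplotlib 3.10.9.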

Additional observations from a re-analysis of the deposited data

Results flagged for a closer look

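Of the 10 genes, 2 had a library set far from the other 9 in mean level, where chance gives about 1 in 20 such flags per group. Krt19 was at 247.98 CPM in set 6, with the next lowest set at 299.7 CPM. Krt20 was at 26.4 CPM in set 10, with the next highest set at 11.6 CPM. Set 10 held the 1 cell with 15 Krt20 counts, at 483.9 CPM, which weighs heavily in a mean over 37 cells. It also held 11 of the 29 cells with a Krt20 count. Why these sets stand apart was not tested.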

How the results depend on the processing

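Recomputed main results were judged by the SD over library sets, and the number of listed genes in 90% of cells by a fold. For the medians of the 9 genes these SDs were 0.10 to 0.22, larger in size than the median in all comparisons but the cell cycle. A change of sign or a large relative change can therefore lie within the SD. All but 1 of the recomputed values moved by less than these limits. The exception was the cell cycle comparison with tertiles cut within bins of long-gene share, chosen after seeing the data, where the median of the 9 genes was -0.029 in place of 0.11. For single genes, the Krt20 ratio by Lgr5 changed sign, with -0.44 to 1.52 over the fits that left out 1 library set. By goblet score it ran from -0.12 to 1.405. Leaving out each library set gave medians of 0.06 to 0.15 by cell cycle, -0.19 to -0.10 by depth and 0.11 to 0.14 for the pairwise correlation. The medians crossed 0 by goblet score (-0.05 to 0.01), by Krt20 (-0.04 to 0.04) and by Mex3a (-0.04 to 0.04). The share of cells with Krt20 was 1.84% where 2 counts or more were asked for. No paired analysis was possible because all cells form 1 group, so no replicate number is shared between groups; ratios within library sets are given as an SD and as signs. Cells are not replicates, genes of few counts are limited by depth, and the count ceiling of 36 limits ratios of abundant genes.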
